A study of Mus musculus with 12 samples.

Results

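The genes examined here were 10 symbols fixed by name: the hexose transporter genes Slc2a1, Slc2a2, Slc2a3, Slc2a4, Slc2a5, Slc2a8 and Slc2a9, and 3 enzyme genes that handle fructose or its products, Khk, Sord and Glyctk. All 10 were found among the 26214 symbols of the count table. The rule used no measured value, but the genes were chosen with earlier results of these data known. The cells were mLTC-1, a mouse Leydig line kept in serum-containing medium. There were 6 control libraries from cells given the DMSO vehicle (0 µM compound) and 6 libraries from cells given 100 µM MSNBA, a small molecule that the submitters call a specific blocker of Glut5, a fructose transporter. Both exposures lasted 24 h before polyA RNA was extracted. All libraries come from this 1 line. Since no label ties a replicate to its own culture dish, the p-values reflect the spread among these libraries, which may be only technical.

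Hexoses cross the plasma membrane through the GLUT proteins, which the Slc2a genes encode and which carry sugars down their concentration gradient. Glut5, the product of Slc2a5, is the transporter dedicated to fructose, and the Glut2 protein carries both glucose and fructose. Inside the cell, ketohexokinase (Khk) phosphorylates fructose, and after the product is split, triokinase (Tkfc) and glycerate kinase (Glyctk) return the fragments to central metabolism. Fructose can also be made inside the cell by the polyol pathway, in which aldose reductase (Akr1b3) reduces glucose to sorbitol and sorbitol dehydrogenase (Sord) oxidizes sorbitol to fructose. Leydig cells, the androgen-producing cells of the testis, take up hexoses for energy and for reducing power.

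Totals ran from 59113 to 657251 counts per library, and the ratio of geometric mean totals, MSNBA over control, was 2.14 (two-sided exact permutation p = 0.0606). A floor of 3 counts corresponded to 4.56 CPM (counts per 1000000 counts of the library) in the deepest library and to 50.8 CPM in the shallowest. All 7 Leydig markers (Star, Cyp11a1, Cyp17a1, Hsd3b1, Insl3, Lhcgr and Nr5a1) passed the filter on low counts. Their summed level ran from 7490 to 10905 CPM in controls and from 7569 to 9388 CPM with MSNBA. Levels in a bulk library cannot tell fewer cells with a transcript apart from less of it per cell.

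Slc2a5 was at the limit of detection in both groups. It lies on chromosome 4 from 150119344 to 150144168 (RefSeq, GRCm38.p6, the assembly also called mm10). Across 2277923 counts it received 2, of which 1 came from control 5 and 1 from MSNBA 6, and the other 10 libraries had 0. The Slc2a5 count amounted to 1.47 CPM over the pooled controls (exact 95% Poisson interval 0.0373 to 8.20) and 0.626 CPM over the pooled MSNBA libraries (0.0158 to 3.49). These values lie below the floor of 3 counts over a group, which was 4.41 CPM for the controls and 1.88 CPM for MSNBA. No ratio of pooled CPM was computed, because both groups were under the floor. The fit without the filter on low counts gave Slc2a5 a log2 fold change of -0.65 (SE 1.11, edgeR adjusted p = 0.838), from these 2 counts. A difference in Slc2a5 was therefore not detectable at this depth, and the intervals cover counting error only. In the single libraries with 0 Slc2a5 counts, the floor of 3 counts ran from 4.56 CPM in MSNBA 1 to 38.9 CPM in control 2.

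For comparison with a well-counted transporter gene, Slc2a1 received 246 counts in the same libraries. Slc2a1 encodes Glut1, the basal glucose transporter of many cell types, and lies on the same chromosome from 119108745 to 119137330. Divided by the longest RefSeq-linked coding transcript of each gene (3158 bases for Slc2a5 and 3260 bases for Slc2a1), the pooled Slc2a5 level was 0.839% of the Slc2a1 level (exact 95% interval 0.101% to 3.06%). The stretch before the start site is shown for this pair, the stated target and the best-counted transporter, to set 2 promoters beside 2 very different counts. Each runs 250 bases up to the base before the annotated start, from RefSeq on GRCm38.p6, plus strand, with every CG dinucleotide in capitals. The Slc2a5 stretch is chr4:150119094-150119343 and the Slc2a1 stretch is chr4:119108495-119108744.
Slc2a5: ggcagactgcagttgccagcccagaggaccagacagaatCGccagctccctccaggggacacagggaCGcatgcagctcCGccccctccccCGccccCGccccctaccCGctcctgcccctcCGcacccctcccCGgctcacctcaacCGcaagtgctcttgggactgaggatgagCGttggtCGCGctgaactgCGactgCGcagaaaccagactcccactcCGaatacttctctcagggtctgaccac
Slc2a1: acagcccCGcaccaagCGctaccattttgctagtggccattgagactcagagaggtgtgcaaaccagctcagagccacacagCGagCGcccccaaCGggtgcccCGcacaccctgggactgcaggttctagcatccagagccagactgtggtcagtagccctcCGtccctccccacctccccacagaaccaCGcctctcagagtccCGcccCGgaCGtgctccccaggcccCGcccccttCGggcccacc

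The Slc2a5 stretch held 15 CG dinucleotides and that of Slc2a1 held 13, and GC content was 66.4% in both. At least 15 were found in 27.3% of all 32841 RefSeq promoters of this length, and at least 13 in 31.6%. The promoter table held 8 of the 10 genes. Sord had 19 CG dinucleotides, Khk 18, Slc2a8 7, Glyctk 5, Slc2a2 2 and Slc2a9 1. Of the sequence TATAAA, searched on both strands, no copy lay in any of the 8 windows, against 12.4% of all promoters with one. The palindrome CACGTG was in the Khk window only, against 6.02% of all promoters. The table's start sites for Khk, Slc2a9 and Glyctk lie inside the gene spans given by RefSeq, so those windows belong to other start sites than the outermost one.

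Over the 12 libraries pooled, Slc2a1 had the most counts (246), followed by Sord (219), Khk (212) and Slc2a8 (97). The remaining 6 genes had 14 or fewer. MSNBA libraries supplied 1598286 of the 2277923 counts, and the order differed between the groups. Pooled controls had Khk at 112 CPM, Sord at 104 and Slc2a1 at 82.4, whereas pooled MSNBA libraries had Slc2a1 at 119, Sord at 92.6 and Khk at 85.1. In controls the exact 95% Poisson intervals all overlapped, at 88.1 to 140, 81.6 to 132 and 62.2 to 107 CPM. With MSNBA they were 102.6 to 137, 78.3 to 109 and 71.4 to 100.7 CPM, and only those of Slc2a1 and Khk lay apart. Per kilobase of transcript, over all 12 libraries, the order was Khk at 58.8 CPM per kilobase (exact 95% Poisson interval 51.1 to 67.3), Sord at 40.9 (35.6 to 46.7), Slc2a1 at 33.1 (29.1 to 37.5) and Slc2a8 at 20.2 (16.4 to 24.6). The intervals of Sord and Slc2a1 overlapped. Below them came Slc2a4 at 2.44 CPM per kilobase, Slc2a9 at 1.58, Slc2a3 at 1.22, Glyctk at 0.626, Slc2a5 at 0.278 and Slc2a2 at 0.158. Among these 6, each interval overlapped the next in this order. The sources used here do not say which part of a transcript the counted tags came from. If tags mark transcript ends, dividing by length does not apply, and the order by CPM is the relevant one.

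**Figure D1:**
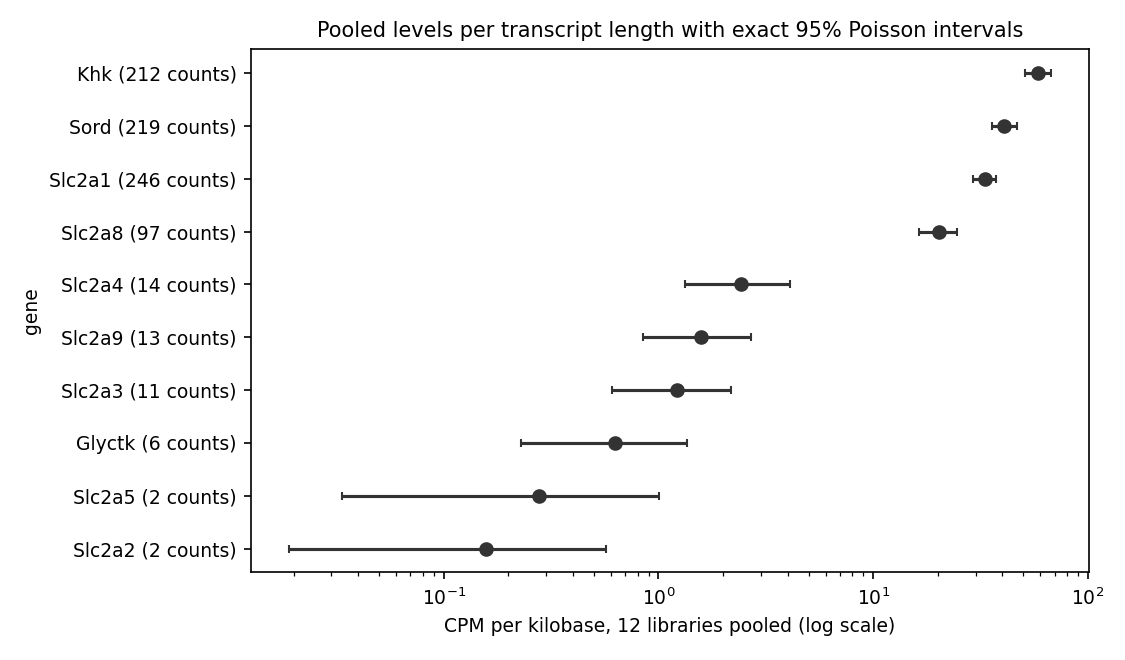
Pooled level of each gene over the 12 libraries in CPM per kilobase of its longest coding transcript (horizontal log axis), with exact 95% Poisson intervals as bars. Khk, Sord, Slc2a1 and Slc2a8 have lower bounds of 16.4 CPM per kilobase or more, and the other 6 genes have upper bounds of 4.09 or less.

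The single comparison, MSNBA against control, asks whether transcripts for hexose entry differ after exposure to a compound described as blocking Glut5. Slc2a1, Khk and Sord passed the filter on low counts and were tested by the edgeR quasi-likelihood test with Benjamini-Hochberg adjustment over 2614 genes. At an adjusted p of 0.05, 0 of these 3 were called, and the background over all tested genes was 0.0765% (2 genes). At an unadjusted p under 0.05, 1 of the 3 was higher, Slc2a1, where 4.17% of all tested genes were higher under that value and 8.95% lay under it in either direction. DESeq2 and limma-voom also called 0 of the 3, with 0 and 1 of them at an unadjusted p under 0.05. Over all tested genes the median log2 fold change was -0.0082. CPM of the groups overlapped for each of the 3, and 0.689% of all tested genes had groups that did not overlap.

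Slc2a1 was uneven among the controls. In controls 1 to 6 it measured 120, 38.9, 107, 50.1, 118 and 34.4 CPM, from 28, 3, 9, 4, 7 and 5 counts. In MSNBA 1 to 6 it measured 119, 146, 120, 106, 110 and 110 CPM, from 78, 22, 41, 10, 20 and 19 counts. Controls 1, 3 and 5 stood at the level of the MSNBA libraries, whereas controls 2, 4 and 6 lay below all 6 of them. Of these 3, control 6 alone had an upper Poisson bound (80.2 CPM) under the lowest MSNBA value. The part of depth in this was not tested. The totals of controls 1, 3 and 5 were 234225, 83983 and 59113 counts, and those of controls 2, 4 and 6 were 77030, 79770 and 145516.

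The group means of Slc2a1 were 78.1 ± 41.0 CPM in controls and 119 ± 14.5 CPM with MSNBA (SD, n = 6 per group), a coefficient of variation of 52.5% against 12.2%. The log2 fold change was 0.53 (SE 0.25, edgeR unadjusted p = 0.0429, adjusted p = 0.536). The fitted fold was 1.44, with a 95% interval from 1.01 to 2.05 before adjustment. The difference did not pass the test. Its size rested on single controls, running from 0.32 without control 6 to 0.85 without control 1 on the log2 scale. It was 0.34 without controls 2 and 4 (edgeR unadjusted p = 0.207). With library depth in the model it was 0.49 (edgeR unadjusted p = 0.099), and with a replicate block 0.49 (edgeR unadjusted p = 0.0697). DESeq2 gave 0.55 (DESeq2 unadjusted p = 0.0588) and limma-voom 0.62 (limma-voom unadjusted p = 0.0287). An annotated antisense transcript, Gm12868, overlaps Slc2a1 exons on the other strand, and counting by strand is not given in the sources used here.

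Khk lies on chromosome 5 from 30921436 to 30931248. In controls 1 to 6 it measured 141, 104, 107, 113, 102 and 75.6 CPM, and in MSNBA 1 to 6 it measured 66.9, 113, 81.8, 84.9, 138 and 81.3 CPM. MSNBA 1 lay below all 6 controls and MSNBA 3, 4 and 6 lay below 5 of them. MSNBA 2 and 5 lay among the highest values of either group. Means were 107 ± 21.0 and 94.2 ± 26.0 CPM (SD, n = 6 per group). The log2 fold change of Khk was -0.34 (SE 0.24, edgeR adjusted p = 0.676), and the 95% interval of the fold ran from 0.567 to 1.10. It was -0.15 (SE 0.28) with library depth in the model and -0.16 (SE 0.25) without MSNBA 1, the deepest library. The table gives 1 value per gene, so the 2 splice forms of ketohexokinase, which differ in affinity for fructose, could not be told apart.

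Sord lies on chromosome 2 from 122234839 to 122265337. In controls 1 to 6 it measured 115, 77.9, 119, 100.3, 118 and 89.3 CPM, and in MSNBA 1 to 6 it measured 114, 86.3, 61.3, 127, 55.1 and 98.8 CPM. MSNBA 3 and 5 lay below all controls and MSNBA 4 lay above all of them, so the treated libraries spread to both sides. Means were 103 ± 17.1 and 90.5 ± 28.7 CPM (SD, n = 6 per group). The log2 fold change of Sord was -0.23 (SE 0.24, edgeR adjusted p = 0.815), with a 95% interval of the fold from 0.613 to 1.19. Without MSNBA 3 it was -0.10 and without MSNBA 1 it was -0.40.

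**Figure D2:**
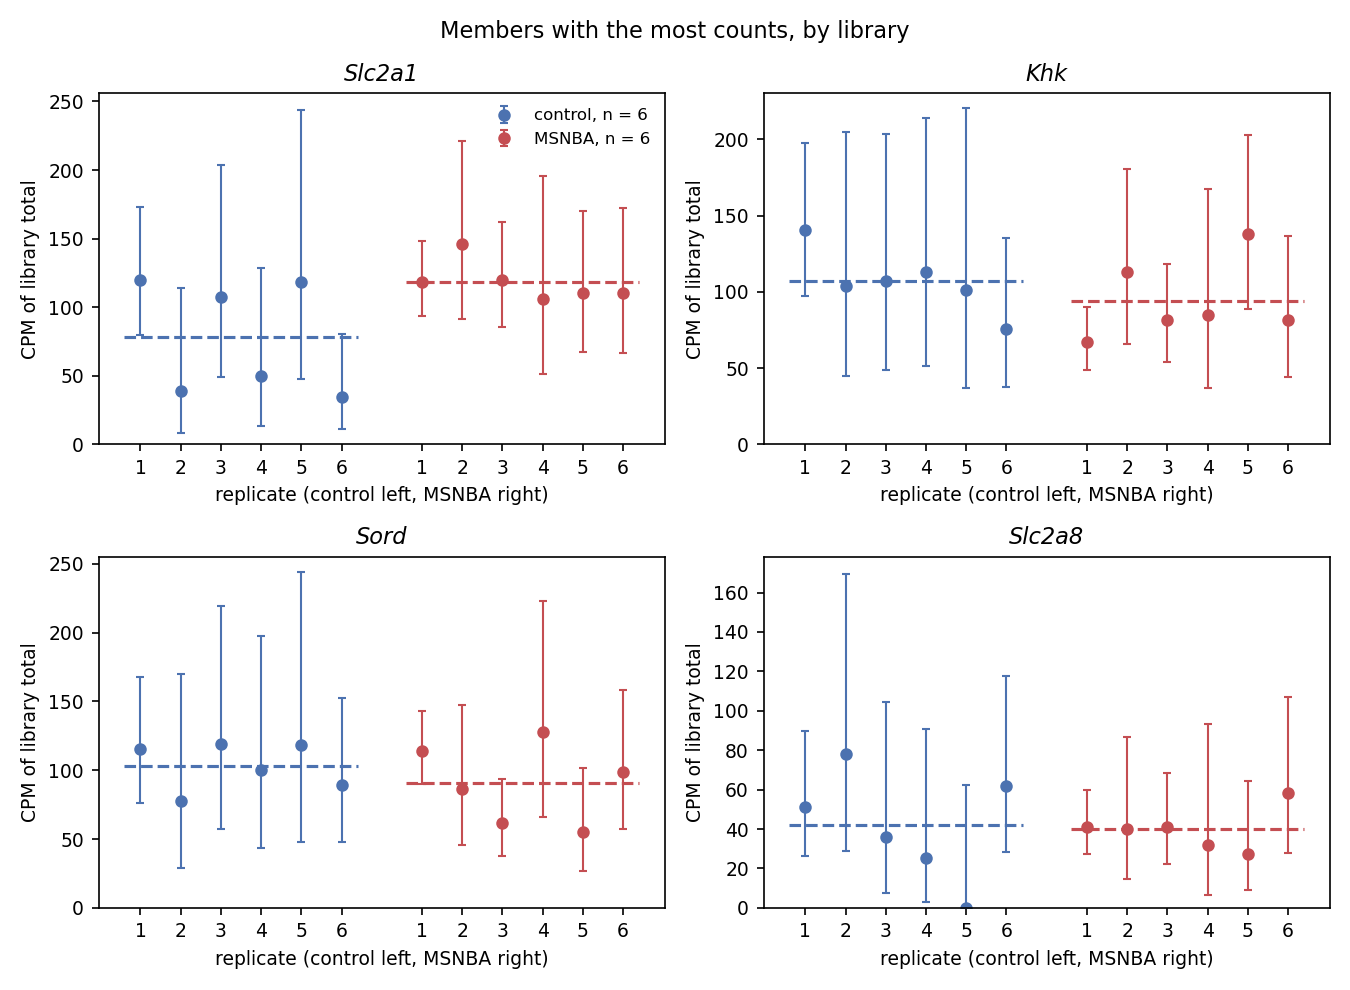
CPM of the library total (vertical axes) for Slc2a1, Khk, Sord and Slc2a8 in each of the 6 control and 6 MSNBA libraries, with exact 95% Poisson intervals as bars and group means as dashed lines. Controls 2, 4 and 6 are low for Slc2a1, at 34.4 to 50.1 CPM, and in the other panels the points of both groups are interleaved.

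Slc2a8 encodes an intracellular hexose transporter known to be abundant in testis, and lies on chromosome 2 from 32972981 to 32982083. It did not pass the filter. In controls 1 to 6 it had 12, 6, 3, 2, 0 and 9 counts, or 51.2, 77.9, 35.7, 25.1, 0 and 61.8 CPM. In MSNBA 1 to 6 it had 27, 6, 14, 3, 5 and 10 counts, or 41.1, 39.8, 40.9, 31.9, 27.5 and 58.1 CPM. The treated libraries lay within the control range, and the floor of 3 counts in control 5, which had 0, was 50.8 CPM. Pooled over a group Slc2a8 measured 47.1 CPM (exact 95% Poisson interval 32.2 to 66.5) in controls and 40.7 CPM (31.4 to 51.8) with MSNBA, a ratio of 0.864 (counting interval 0.557 to 1.36).

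The other 6 genes were near zero. Slc2a2, which encodes the Glut2 transporter of liver and pancreatic beta cells, had 0 counts over the controls, where the floor of 3 counts was 4.41 CPM, and 1 count each in MSNBA 1 and MSNBA 6. Slc2a3, which encodes the high-affinity glucose transporter of neurons and sperm, had 3 counts in controls, 2 in control 1 and 1 in control 5. With MSNBA it had 8 counts, 3 in MSNBA 2, 2 in MSNBA 3, 2 in MSNBA 4 and 1 in MSNBA 5. The deepest library, MSNBA 1, had 0. The ratio of pooled CPM for Slc2a3 was 1.13 (counting interval 0.272 to 6.64). Without MSNBA 2 it was 0.782 and without control 1 it was 2.23.

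Slc2a4, which encodes the insulin-responsive transporter of muscle and fat, had a count in 9 of 12 libraries but never more than 4. It had 4 counts in controls and 10 with MSNBA, a pooled ratio of 1.06 (counting interval 0.307 to 4.64), which was 0.697 without control 1. Slc2a9, which encodes a transporter best known for urate, had 3, 2 and 2 counts in controls 1, 4 and 6 and 4, 1 and 1 counts in MSNBA 1, 2 and 3. Its pooled level was 10.3 CPM in controls and 3.75 CPM with MSNBA, a ratio of 0.364 whose counting interval, 0.101 to 1.27, includes no change. Without MSNBA 1 the Slc2a9 ratio was 0.206. Glyctk had 1 count in control 3 and 5 counts with MSNBA, in MSNBA 1, 2 and 3, a ratio of 2.13 (0.238 to 100.6). Without control 1, which had 0 Glyctk counts but is the deepest control, that ratio was 1.39. An antisense gene and a microRNA gene overlap Glyctk exons on the other strand.

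In a fit without the filter on low counts, over 19576 genes with a count, 0 of the 10 genes were called, where the background was 0.0766% (15 genes). The edgeR adjusted p-values of the 7 genes outside the reported test ran from 0.630 for Slc2a9 to 0.956 for Slc2a4, and 0 of these 7 had an unadjusted p under 0.05, where 6.96% of all genes in that fit did. Slc2a1 in the same fit was at 0.67 on the log2 scale (edgeR unadjusted p = 0.00839, adjusted p = 0.489). The largest log2 fold changes had standard errors near 1: Slc2a2 was at 1.56 (SE 1.15) and Slc2a9 at -1.22 (SE 0.80). In that fit the 2614 genes of the reported test had a median of 0.14 on the log2 scale, so values on that scale sit higher than those above.

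**Figure D3:**
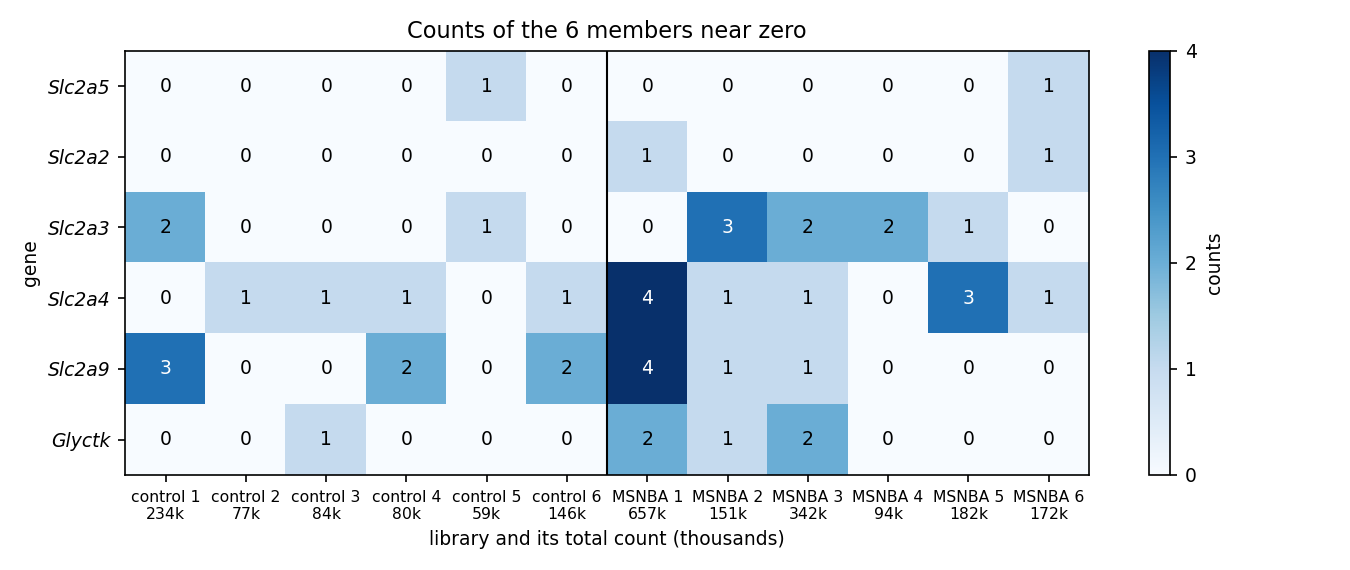
Counts of the 6 genes near zero (rows) in each library (columns, with the library total beneath, rounded, in kilo-counts), shaded by count. Slc2a5 has 1 count in control 5 and 1 in MSNBA 6, and no cell exceeds 4 counts.

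Other genes of hexose entry were read from 6 lists, 65 genes in all, of which 61 had a count and 19 were tested. By edgeR 0 of these 19 were called, against the same background of 0.0765%. Of the 19, 1 was under an unadjusted p of 0.05, where 8.95% of all tested genes were, in either direction. DESeq2 and limma-voom also called 0. The 5 further Slc2a genes (Slc2a6, Slc2a7, Slc2a10, Slc2a12 and Slc2a13) had 8 counts in controls and 25 with MSNBA, and 0 were tested. Their summed level had a median of 12.8 CPM in controls and 13.6 CPM with MSNBA. Slc2a12 had the most, with 5 and 12 counts, or means of 7.99 and 6.59 CPM. Among 8 sodium-linked and SWEET-type sugar transporter genes 0 were tested and Slc5a4b and Slc5a11 had 0 counts. Slc50a1 held 13 of the list's 21 counts in controls and 58 of 65 with MSNBA, at 19.8 ± 11.7 CPM in controls and 33.4 ± 9.19 CPM with MSNBA (SD, n = 6 per group).

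Downstream of Khk, Tkfc had few counts, 3 in controls and 8 with MSNBA. Of the polyol pathway, Akr1b3 had 12 counts in controls and 21 with MSNBA. By depth that was a mean of 22.1 ± 32.1 CPM in controls and 13.7 ± 6.10 CPM with MSNBA (SD, n = 6 per group). The means for Tkfc were 3.95 and 5.10 CPM. In contrast, the glycolytic aldolase gene Aldoa measured 4637 ± 447 CPM in controls and 5012 ± 262 CPM with MSNBA (SD, n = 6 per group). Also well counted were the aldehyde dehydrogenase gene Aldh2, at 1171 ± 191 and 1178 ± 107 CPM, and the aldo-keto reductase gene Akr1a1, at 592 ± 52.8 and 617 ± 28.0 CPM. Of the 12 fructose and polyol genes 6 were tested, 4 with values above 0 and 2 below, with a median log2 fold change of 0.04.

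Hexokinases, which trap glucose and can also phosphorylate fructose, had 3 tested genes of 7 in their list. Hk1 measured 98.1 ± 24.9 and 96.3 ± 31.8 CPM, and Hk2 measured 93.1 ± 42.2 and 117 ± 35.1 CPM (log2 fold change 0.28, SE 0.25, edgeR adjusted p = 0.764). Hkdc1 measured 125 ± 46.0 and 84.8 ± 34.6 CPM (log2 fold change -0.60, SE 0.30, edgeR adjusted p = 0.555). With library depth in the model the sign of Hkdc1 turned, to 0.15, and it was -0.90 without control 1 and -0.35 without MSNBA 1. Hk2 was at 0.05 without controls 2 and 4, 0.17 without control 2 and 0.50 without control 1. The list's median was -0.07, and its sign turned in some settings, from -0.26 without control 1 to 0.13 without MSNBA 1 and 0.16 with library depth in the model.

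Among 15 genes of the hexose phosphate branches 4 were tested, 3 above 0 and 1 below, with a median log2 fold change of 0.21. The phosphoglucose isomerase gene Gpi1 measured 1607 ± 267 and 1741 ± 55.7 CPM, and the phosphomannomutase gene Pmm1 198 ± 54.5 and 159 ± 41.6 CPM. The phosphoglucomutase gene Pgm1 measured 167 ± 41.3 and 216 ± 20.4 CPM (log2 fold change 0.33, SE 0.18, edgeR adjusted p = 0.583). G6pc3, which encodes a glucose 6-phosphatase, was the 1 gene under an unadjusted p of 0.05 and is named for that reason after its values were seen. It measured 81.2 ± 23.6 and 131 ± 41.7 CPM (log2 fold change 0.59, SE 0.24, edgeR unadjusted p = 0.0195, adjusted p = 0.401). The log2 fold change of G6pc3 was 0.41 with library depth in the model (edgeR unadjusted p = 0.149). Without controls 2 and 4 it was 0.44 (edgeR unadjusted p = 0.0916). It was 0.71 without control 1 and 0.73 without the low-count filter.

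Of 18 genes for the trafficking and control of GLUT proteins, 6 were tested, with 3 values above 0, 3 below and a median of -0.01, which ran from -0.24 without MSNBA 6 to 0.13 without the low-count filter. Txnip, whose product promotes the removal of Glut1 from the cell surface, measured 113 ± 43.0 CPM in controls and 101 ± 29.2 CPM with MSNBA. Hif1a, which encodes a regulator of Slc2a1, measured 132 ± 25.9 and 155 ± 25.4 CPM, and Rab10, a gene for GLUT4 vesicle traffic, 108 ± 55.0 and 115 ± 13.3 CPM (SD, n = 6 per group). For each of these 3, the means differed by less than 1 SD of the controls.

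Markers of other cell types differed widely in level. Of 7 enterocyte markers (Vil1, Lct, Sis, Fabp2, Alpi, Apoa4 and Cdh17), cells in which Slc2a5 is abundant, 6 had a count. Their summed level ran from 0 to 25.1 CPM in controls and from 0 to 21.2 CPM with MSNBA, with Fabp2 at 0. Of 7 hepatocyte markers 6 had a count, and the sum ran from 68.7 to 213 CPM in controls and from 27.4 to 95.6 CPM with MSNBA, with Ttr at 0. Alb supplied 76 of the 81 counts in controls and 75 of the 84 with MSNBA, with a log2 fold change of -1.20 (SE 0.35, edgeR unadjusted p = 0.00242, adjusted p = 0.228). All 10 germ cell markers had a count, with sums from 107 to 321 CPM and from 108 to 264 CPM. Most of these counts came from Ldhc (63 in controls and 104 with MSNBA, or 109 ± 48.3 and 77.8 ± 24.1 CPM), Prm2 (28 and 69), Tnp1 (22 and 31) and Prm1 (13 and 13). Mean levels were 43.4 and 53.4 CPM for Prm2, 38.3 and 24.4 CPM for Tnp1 and 19.3 and 7.80 CPM for Prm1. Ddx4, which defines the lineage, had 0 and 1. Sertoli cell markers were all counted and summed to 1141 to 2194 CPM and 1076 to 1452 CPM, mostly from Clu at 1485 ± 373 and 1148 ± 144 CPM (log2 fold change -0.38, SE 0.13, edgeR unadjusted p = 0.0072, adjusted p = 0.318). Dhh had 28 and 60 counts, Gata1 21 and 27, Sox9 3 and 13, Wt1 0 and 1 and Amh 1 and 0. Mean levels were 47.4 and 37.1 CPM for Dhh, 24.5 and 16.9 CPM for Gata1 and 4.45 and 12.4 CPM for Sox9. All libraries came from the mLTC-1 line, so these values are read as its transcript levels, not as shares of other cell types. Any link between them and the values of the 10 genes was not tested. Macrophage, endothelial and peritubular markers summed to at most 35.7, 50.8 and 74.3 CPM in any library. For comparison, the 7 Leydig markers had 3 log2 fold changes above 0 and 4 below. Insl3 was at 0.28 (SE 0.12, edgeR unadjusted p = 0.0187, adjusted p = 0.401). Cyp11a1 was at -0.21 (SE 0.11, edgeR unadjusted p = 0.0576, adjusted p = 0.566).

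The genes most like each tested member over the 12 libraries were named by the highest Pearson correlation of log2 CPM among 2611 candidates. They were Arf6 (r = 0.88) and Rps25 (r = 0.88) for Slc2a1, Midn (r = 0.75) and Vcp (r = 0.75) for Khk, and Mef2a (r = 0.82) and Copa (r = 0.80) for Sord. The members averaged 20.5, 17.7 and 18.3 counts per library, so counting error enters each value. The libraries also share their groups and depths, and these correlations are descriptions without a test.

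**Figure D4:**
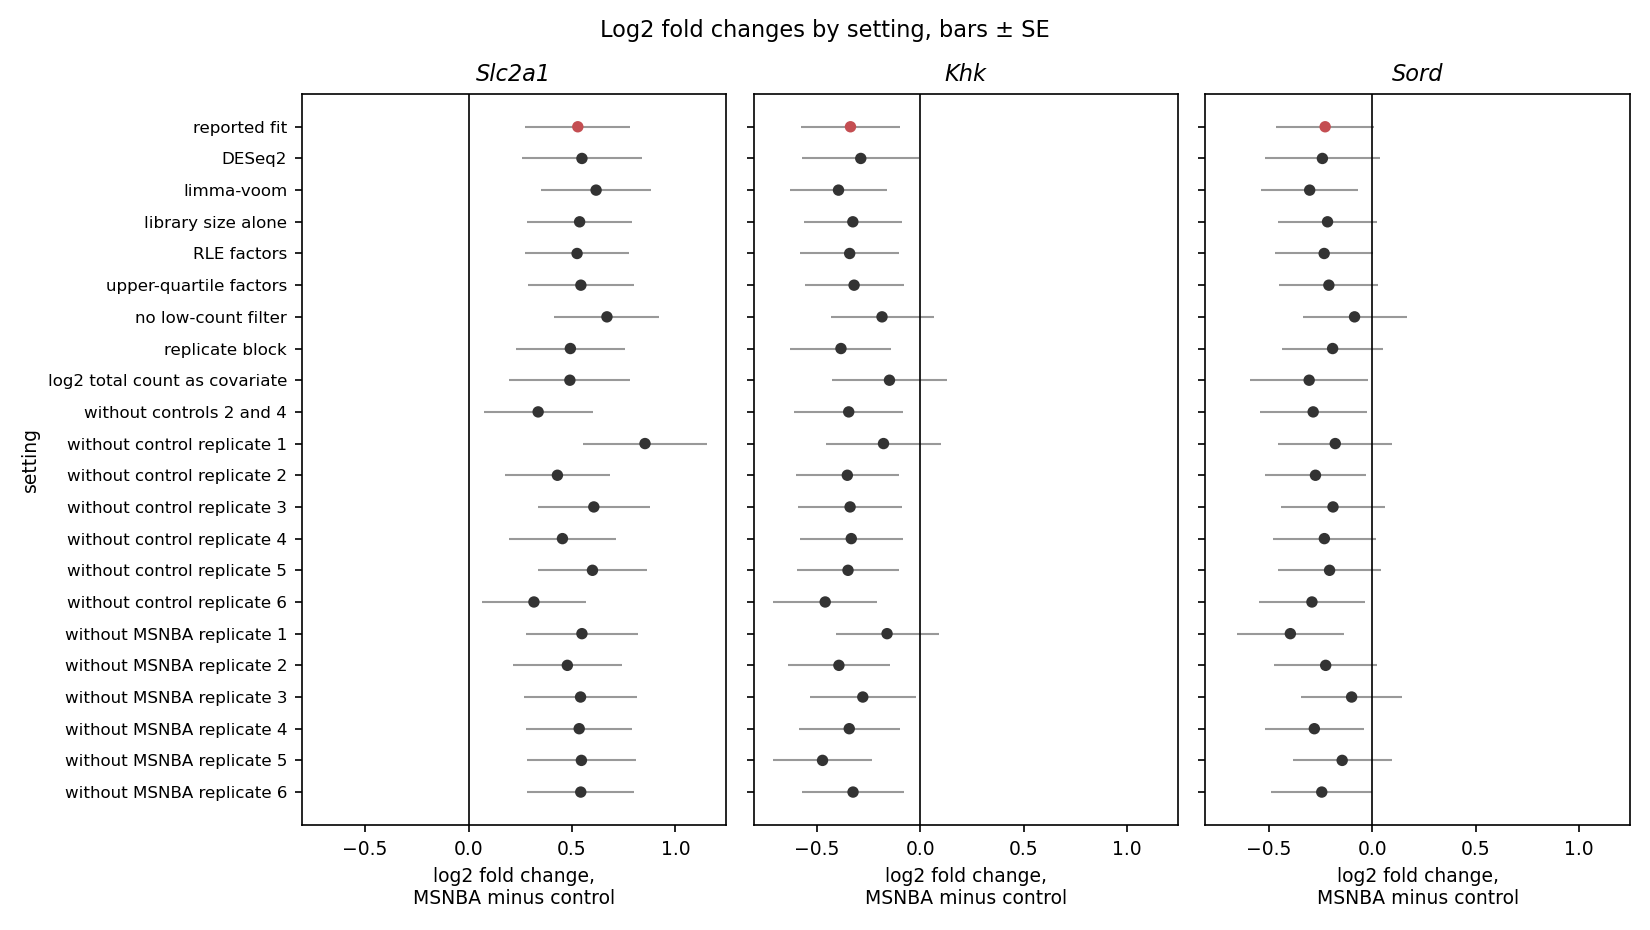
Log2 fold change, MSNBA minus control (horizontal axes), of Slc2a1, Khk and Sord in the reported fit (red) and in each alternative that tested them (black), with bars of ± SE. Slc2a1 lies between 0.32 and 0.85, Khk between -0.47 and -0.15 and Sord between -0.40 and -0.09, and no value passed at an adjusted p of 0.05. The Sord value of -0.09 is from the fit without the filter on low counts, where the median over the genes of the reported test was 0.14.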

How the data were processed

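PolyA RNA of 12 mLTC-1 libraries was sequenced after tagmentation, per the labels' protocols. The authors deposited 1 table of raw whole-number counts per gene symbol, without normalization. Its name points to uniquely aligned, molecular-identifier counts on RefSeq genes. BWA 0.7.4.4 and mm10 are named in the submitters' processing notes, while the counter, annotation and strandedness are not given in these sources.

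Groups and replicate numbers came from the sample titles. Analyses used R 4.3.3, edgeR 4.0.16, limma 3.58.1, DESeq2 1.42.0, Python 3.11.15 and scipy 1.17.1. Genes were kept by filterByExpr (minimum count 10), which left 2614 genes with 79.2% of counts. TMM factors were applied, and the test was the robust edgeR quasi-likelihood F test, two-sided, with Benjamini-Hochberg adjustment. The standard error was the size of the log2 fold change over the square root of F. The fit was tested on simulated data. CPM as printed divide by the full library total, with no such factor. Pooled counts carry exact 95% Poisson intervals, and pooled ratios exact conditional binomial intervals at that level.

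The members and lists were chosen with earlier results of these data known. Named from each list were genes past the threshold or the 3 tested genes with the most counts, and other list genes were named after their values were seen. No block was used, because replicate numbers are not said to mark a shared culture or day. Same-number residuals correlated above 0.1 in 3 of 6 pairs.

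Alternatives were DESeq2, limma-voom, other scalings and filters, thinning, a replicate block, depth as a covariate, and leaving out libraries. Among those left out were controls 2 and 4, in which stress genes stood high. Values of stress genes by library are not given here. The same alternatives were applied to the lists after their values were seen. The values of 2 list genes are not reported here.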

Additional observations from a re-analysis of the deposited data

Results flagged for a closer look

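Of 19 groups of 6 libraries, 5 held a library far from the other 5. Chance gives about 1 in 20 groups, but that rate does not apply where all others are at 0, since a lone count then always stands apart. This was so in 3 of the 5. Slc2a1 in MSNBA 2 measured 146 CPM, and the next MSNBA library had 120 CPM. The other 4 rest on a single count each. Slc2a2 measured 5.81 CPM in MSNBA 6, Slc2a5 measured 16.9 CPM in control 5 and 5.81 CPM in MSNBA 6, and Glyctk measured 11.9 CPM in control 3. MSNBA 6 held the lone count of both Slc2a5 and, beside 1 in MSNBA 1, Slc2a2.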

How the results depend on the processing

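Over 23 alternatives, 0 members and 0 list genes were called. The fit without the filter tested all 10 members, 20 others tested 3, and 2 tested 0, while calls over all genes were 15 at most. Slc2a1, Khk and Sord kept their sign in the 21 that tested them. The stricter filter and thinning to the smallest depth left none of the 3 in the test, by fewer genes kept. Over the 9 of those 21 that did not leave out a single library, the log2 fold change ran from 0.34 to 0.67 for Slc2a1, from -0.40 to -0.15 for Khk and from -0.30 to -0.09 for Sord. The ends 0.67 and -0.09 came from the fit without the filter, where the median over the genes of the reported test was 0.14. With 1 library left out the log2 fold change ran from 0.32 to 0.85 (lowest edgeR adjusted p = 0.214), from -0.47 to -0.16 and from -0.40 to -0.10. With a replicate block the values were 0.49, -0.38 and -0.19, the block changed no call of a member, and 2 of 6 controls correlated best with the MSNBA library of their own number. Hkdc1 turned sign with depth as a covariate (0.15), and the cause was not tested.

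Over all genes, 0 higher and 2 lower calls became 8 and 7 without the filter, 4 higher without controls 2 and 4, and 1 lower with at least 20 counts in 6 libraries. DESeq2, limma-voom, thinning and the depth covariate gave 0 lower. Leaving out 1 library gave 0 to 1 higher and 0 to 5 lower. The cause was not tested. The floors moved to 4.38 and 1.84 CPM with normalized library sizes. Depth limits Slc2a5, Slc2a2 and Glyctk to statements of detection.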

Other observations

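The ratio of Khk to Slc2a1 counts within a library does not depend on how libraries are scaled, and it was computed after the values above were seen. In controls 1 to 6 it was 1.18, 2.67, 1, 2.25, 0.857 and 2.2, and in MSNBA 1 to 6 it was 0.564, 0.773, 0.683, 0.8, 1.25 and 0.737. The controls with a ratio of at least 2.2 were 2, 4 and 6, those in which Slc2a1 had 3, 4 and 5 counts. The ratio of Sord to Slc2a1 was 2, 2 and 2.6 in the same controls, 0.964, 1.11 and 1 in controls 1, 3 and 5, and 0.5 to 1.2 with MSNBA. Both ratios divide by the low Slc2a1 counts that set these controls apart, so neither is separate support for a split of the controls. No counting error was computed for these ratios. The ratio of Khk to Sord ran from 0.846 to 1.33 in controls and from 0.587 to 2.5 with MSNBA, where MSNBA 5 was highest.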
